A study of Mus musculus with 14 samples.

Results

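The clustered protocadherins are cell adhesion genes that lie side by side in an alpha, a beta and a gamma cluster. They were taken from the RNA-SEQ of P2 mouse brains by gene symbol, and 57 of the 17927 genes in the count table matched. Of these, 14 were alpha, 21 were beta and 22 were gamma genes, and the gamma genes divide into 12 of the A, 7 of the B and 3 of the C subfamily. Pcdhb1 was not analysed here. The row ENSMUSG00000007440 carries the symbol Pcdha11 but lies between Pcdha9 and Pcdha11 and has the external name Pcdha10, so it is called Pcdha10 below.

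The brains came from 7 WT and 7 Capn15 KO mice, all untreated and at postnatal day 2, from 6 litters. Capn15 encodes calpain-15, an intracellular cysteine protease, and the study asked which transcripts change when it is lost. The lines were made in C57BL/6J mice, and the allele of these 14 brains is not named in the labels. Litter and sex were read from letters in the column names of the count table, which do not explain them. By this reading litter B gave 4 brains and each of the other 5 litters gave 1 WT and 1 Capn15 KO brain. There were 2 females among the WT and 4 among the Capn15 KO brains.

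Each alpha or gamma gene has its own promoter and its own large first exon, the variable exon, which encodes the extracellular cadherin repeats and the membrane span. It is spliced to constant exons that all genes of the cluster share and that encode the common cytoplasmic end. Beta genes have a variable exon only. In most neurons a few of the variable promoters are chosen by chance, through CTCF, cohesin and DNA methylation, while the C-type genes are expressed more widely and without that choice. The proteins bind their own kind between cells, and the combination on a neuron serves as its identity for self-avoidance of dendrites, for axon tiling and, in the gamma cluster, for the survival of interneurons.

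The WT libraries held 39937477 to 57422382 counts and the Capn15 KO libraries 37620954 to 70910163. Levels are given as CPM, the counts of a gene per 1000000 counts of its library after TMM scaling. Capn15 lay between 25.0 and 27.3 CPM in WT replicates 1 to 6 and between 12.2 and 14.5 CPM in Capn15 KO replicates 1 to 6. Both replicates 7, from litter F, lay between these ranges, with 18.7 CPM in the library labelled WT and 20.2 CPM in that labelled Capn15 KO. In this pair the library labelled WT was thus the lower one. Over all 7 pairs Capn15 was lower by a log2 fold change of -0.81 with an edgeR quasi-likelihood adjusted p of 0.0747, and without litter F the log2 fold change was -0.98. The labels give neurons as the cell type, but the libraries also held transcripts of glia (Slc1a3, 523 CPM) and of choroid plexus (Ttr, 763 CPM), as whole brain does. In such bulk samples fewer cells of a type and less RNA per cell cannot be told apart.

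All 57 genes were on the plus strand of chromosome 18 within 911.69 kilobases, chr18:36930184-37841873 on GRCm38. The alpha genes shared 3 constant exons of 59, 89 and 2712 bases, and the gamma genes shared 3 of 59, 89 and 1971 bases. Part of the annotated length of an alpha or gamma gene is therefore not its own. The exon bases that no other annotated gene holds on that strand, called unshared exon here, made up a median of 46.4% of an alpha, 100% of a beta and 55.3% of a gamma gene. They had a median of 2480 bases in an alpha gene, 3718 bases in a beta gene and 2630 bases in a gamma gene. Pcdha4 was the extreme, with 494 of 5768 bases unshared, since a readthrough gene model (Gm42416) runs over its variable exon. Pcdha8 and Pcdhgb8, which hold the same constant exons as their neighbours, were listed at only 1.10 and 1.02 CPM. These levels are the most that constant-exon reads counted for every gene alike could add to another alpha or gamma member.

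Sequence similarity set a second limit. Stretches of unshared exon were looked up in the transcripts of the members and of other annotated genes within 500 kilobases. Of the 50-base stretches, a median of 14.8% in the 12 variable alpha genes also occurred elsewhere in these transcripts. The share was highest in Pcdha6 with 28.8%. The medians were 3.60% in beta, 0.295% in gamma A and 9.18% in gamma B genes, and at most 0.118% in a C-type gene. For 100-base stretches the shares were lower, with a median of 6.20% in the variable alpha genes and 11.9% in Pcdha6. Reads that lie wholly within such a repeated stretch cannot be assigned to a single gene. On the opposite strand, 13 members overlapped an annotated antisense gene, and for Pcdhga10 the antisense gene Gm26672 covered all 2613 unshared bases. Pcdhga10 was nonetheless at 13.6 CPM and Gm26672 at 3.68 CPM. The strand setting of the counting was not given in the sources used here.

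The C-type genes held the top of the range. Per kilobase of unshared exon, Pcdhgc3 (ENSMUSG00000102918, unshared exon chr18:37806364-37809743) was at 29.1 CPM ± 1.22 (SD, n = 14). Pcdhgc4 (ENSMUSG00000023036, chr18:37815079-37818555), the gamma member known for its part in interneuron survival, was at 26.2 CPM ± 1.62 per kilobase. Pcdhac2 (ENSMUSG00000102697, chr18:37143503-37146530), an alpha isoform expressed throughout serotonergic neurons and needed for the tiling of their axons, was at 15.6 CPM ± 0.592 per kilobase. The brains overlapped between Pcdhgc3 (26.7 to 31.3) and Pcdhgc4 (22.7 to 28.9), but Pcdhac2 (14.4 to 16.3) lay below both and above every other member. These 3 genes held 26.6% of the summed level of all 57 per kilobase. The remaining C-type genes were low, with Pcdhac1 at 1.61 and Pcdhgc5 at 1.82 CPM per kilobase, ranks 48 and 47.

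**Figure D1:**
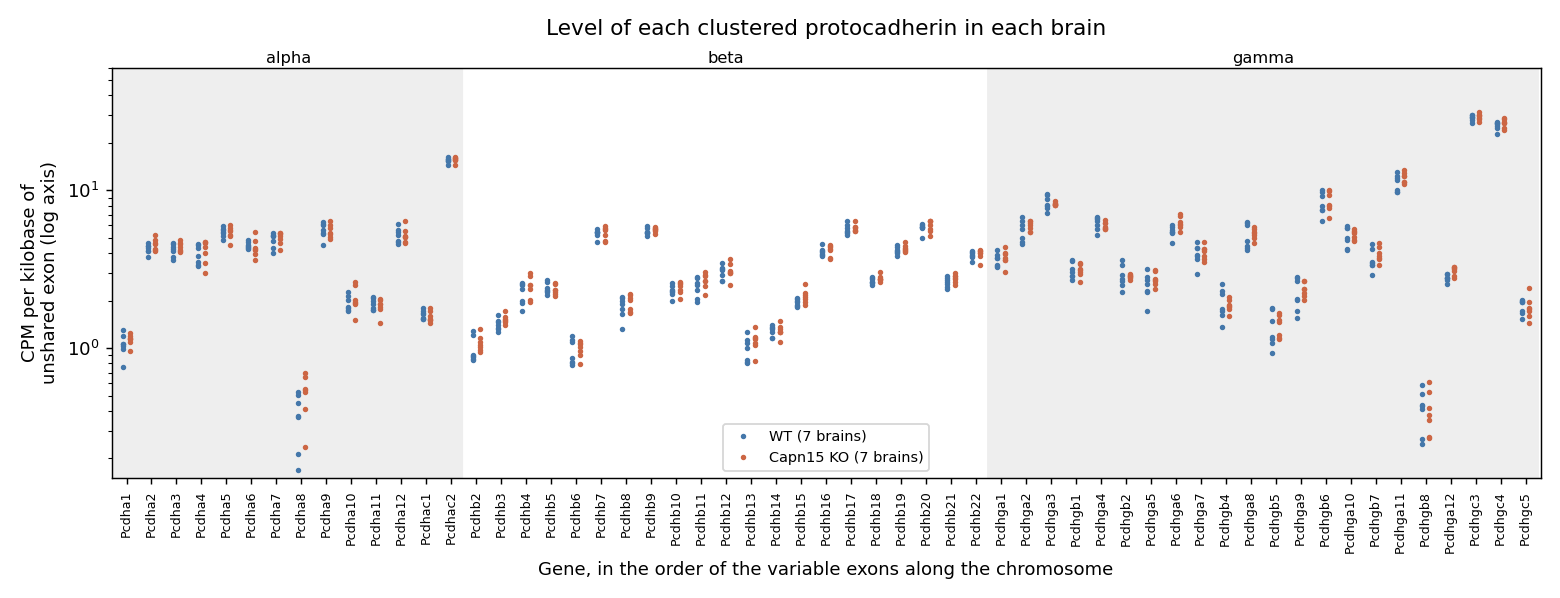
CPM per kilobase of unshared exon (log axis) of the 57 clustered protocadherins, in the order of their variable exons along the chromosome. Each point is 1 brain, blue for WT and red for Capn15 KO (7 each). Pcdhgc3, Pcdhgc4 and Pcdhac2 stand at the top, between 14.4 and 31.3, Pcdha8 and Pcdhgb8 lie at the bottom, and the genotypes overlap in every gene.

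The variable members ranged from 0.407 to 11.7 CPM per kilobase. The highest were 3 gamma genes, Pcdhga11 at 11.7 CPM ± 1.19, Pcdhgb6 at 8.42 ± 1.25 and Pcdhga3 at 8.28 ± 0.610 per kilobase of unshared exon (SD, n = 14), and the range of Pcdhgb6 overlapped with both others. The highest variable alpha genes were Pcdha9 at 5.58 ± 0.572 and Pcdha5 at 5.41 ± 0.421 CPM per kilobase. The highest beta genes were Pcdhb20 at 5.87 ± 0.415, Pcdhb17 at 5.73 ± 0.345 and Pcdhb9 at 5.57 ± 0.224 CPM per kilobase, with overlapping ranges. The median over members was 4.35 in alpha, 2.56 in beta and 3.89 in gamma. Pcdha8 at 0.444 and Pcdhgb8 at 0.407 CPM per kilobase closed the order, and with 22 counts in its shallowest library Pcdha8 was also the least deeply measured member. The order depended on the length used. Pcdha4 ranked 25 per kilobase of unshared exon and 55 per kilobase of all annotated exon. By the same lengths Pcdhga4 ranked 7 and 33, and Pcdhb10 ranked 39 and 27. Per kilobase of all annotated exon the median of alpha also lay below that of beta.

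Summed over members, the clusters held 852 CPM on average, with a range over the 14 libraries from 787 to 886. Per kilobase of unshared exon the alpha genes made up 22.9% ± 1.0, the beta genes 23.6% ± 1.34 and the gamma genes 53.5% ± 2.11 (SD, n = 14). Without division by length the shares were 17.9%, 31.5% and 50.5%, and the gap between beta and alpha was wider. The gamma share per kilobase differed between genotypes by less than its spread, with 53.4% ± 2.78 in WT and 53.6% ± 1.38 in Capn15 KO brains (SD, n = 7).

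With litter, sex and genotype fitted, the spread left between brains was small in most members, although single neurons are known to differ in the variable genes they choose. Differences between litters, given below, are not part of this spread. The biological coefficient of variation fitted by edgeR within litter, sex and genotype had a median of 0.0703 in alpha, 0.0573 in beta and 0.0564 in gamma genes, beside 0.0541 over all genes tested. Pcdha8 and Pcdhgb8 had the highest values, 0.296 and 0.252. Among the 2990 genes with a mean of 0.5 to 2 CPM, whose median was 0.138, these values stood at the 94.8th and 92.1st percentiles. The lowest value of a member was 0.0354, in Pcdhgc4.

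Once litter and sex were accounted for, 0 of the 57 members differed between Capn15 KO and WT brains at an edgeR quasi-likelihood FDR of 0.05, beside 1 gene of all tested (0.00558%). The paper, also with edgeR, sex and litter, listed more genes at this FDR. Its list holds Capn15 and Ttr, which did not pass here, and no clustered protocadherin. The cause of this gap was not tested. The WT and Capn15 KO values overlapped in all 57 members, and 0.00558% of all genes had groups that did not overlap. At an unadjusted p under 0.05 there were 6 members, 1 beta and 5 gamma genes, against 5.14% of all genes, and all 6 were higher in Capn15 KO, against 2.88% of all genes. No member passed the FDR in any of 25 alternative fits, and the lowest adjusted p that any reached was 0.0669 (Pcdhga2, edgeR likelihood ratio test).

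Among gamma A genes, Pcdhga2 had the lowest p. It lay at 11.8, 14.7 and 17.4 CPM (lowest, median, highest) in WT and at 13.9, 15.5 and 16.4 CPM in Capn15 KO brains. The Capn15 KO values sat inside the WT range, and only 3 of 7 Capn15 KO brains exceeded the WT brain of the same replicate number. Such pairs were of opposite sex in litters A to E, so pair counts here and below mix genotype with sex. The fit with litter and sex gave a log2 fold change of 0.17 ± 0.039 (SE) with a p of 0.00068 and an adjusted p of 0.371. Without litter and sex the log2 fold change was 0.093 with a p of 0.283.

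Pcdhga12 and Pcdhga6, also of the gamma A subfamily, exceeded WT in most pairs. Pcdhga12 was at 11.5, 12.6 and 13.4 CPM in WT and at 12.7, 14.5 and 14.9 CPM in Capn15 KO brains. It exceeded its WT partner in 6 of 7 pairs, with a log2 fold change of 0.18 ± 0.051 and an adjusted p of 0.542. Pcdhga6, chosen after its values were seen, was at 12.1, 14.2 and 15.7 CPM in WT and at 14.2, 15.9 and 18.4 CPM in Capn15 KO brains. It exceeded its WT partner in 7 of 7 pairs, with 0.17 ± 0.049 and an adjusted p of 0.622. In both genes the groups overlapped. Without both libraries of litter F the log2 fold changes were 0.16 for Pcdhga2, 0.15 for Pcdhga12 and 0.14 for Pcdhga6.

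Pcdhga11, the highest variable member, was at 25.7, 30.7 and 34.6 CPM in WT and at 29.0, 32.3 and 35.3 CPM in Capn15 KO brains. The upper parts of the ranges coincided, and the log2 fold change was 0.13 ± 0.034 with an adjusted p of 0.470. Pcdhgb7, chosen after its values were seen, had 0.15 ± 0.047 with an adjusted p of 0.746. Pcdhb4 was the beta gene with the lowest p and lay at 6.35, 8.78 and 9.66 CPM in WT and at 7.26, 9.27 and 11.1 CPM in Capn15 KO brains. The fitted log2 fold change was 0.12 ± 0.052 with an adjusted p of 0.954, and without litter F it was 0.094 with an unadjusted p of 0.122.

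The high and widely expressed C-type genes gave the tightest estimates. Pcdhgc3 was at 90.1, 98.0 and 101.4 CPM in WT and at 92.3, 100.6 and 105.8 CPM in Capn15 KO brains, with a log2 fold change of 0.043 ± 0.028. Pcdhgc4 was at 79.0, 91.6 and 94.4 CPM in WT and at 84.2, 93.4 and 100.4 CPM in Capn15 KO brains, with 0.054 ± 0.026 and an adjusted p of 0.972. Pcdhac2 was at 43.7, 46.8 and 49.4 CPM in WT and at 43.6, 47.8 and 49.4 CPM in Capn15 KO brains, with 0.022 ± 0.033. The genotypes overlapped in all 3 genes, most fully in Pcdhac2, and Pcdhgc4 was higher in Capn15 KO in 6 of 7 pairs. Pcdhac1 and Pcdhgc5 had log2 fold changes of -0.027 ± 0.076 and -0.011 ± 0.062.

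In the alpha cluster no gene had an unadjusted p under 0.05. The largest log2 fold change of any member was that of Pcdha8, 0.45 ± 0.26, with 0.419, 0.923 and 1.31 CPM in WT and 0.586, 1.34 and 1.71 CPM in Capn15 KO brains. Its standard error was also the largest, and its adjusted p was above 0.99. Without litter B the log2 fold change was 0.75 with an adjusted p of 0.481. By p, Pcdha11 and Pcdha2 followed with -0.075 ± 0.066 and 0.069 ± 0.062, and the highly expressed Pcdha9 and Pcdha5 had 0.031 ± 0.054 and 0.028 ± 0.053. Of the beta genes, Pcdhb15 was higher in 7 of 7 pairs with 0.11 ± 0.063, and Pcdhb18 had 0.070 ± 0.042. The most expressed beta genes Pcdhb20, Pcdhb17 and Pcdhb9 had 0.023 ± 0.049, -0.0082 ± 0.037 and 0.034 ± 0.038.

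Counted without regard to the test, 45 of the 57 members had a log2 fold change above 0, beside 51.4% of all genes. They were 10 of 14 alpha, 16 of 21 beta and 19 of 22 gamma genes, and the median log2 fold change was 0.029 in alpha, 0.035 in beta and 0.067 in gamma members, beside 0.0015 over all genes tested. Members of a cluster share a chromosome region, and alpha and gamma members also share exons, so they are not independent of each other. Markers of choroid plexus moved with genotype in the same libraries. Of their 4 genes, all measured, 3 had an unadjusted p under 0.05, beside 5.14% of all genes. The summed level of the 4 was 722 to 953 CPM in WT and 591 to 826 CPM in Capn15 KO brains. Ttr, which encodes transthyretin, had a log2 fold change of -0.32 ± 0.051 with an adjusted p of 0.0942. None of the 4 was at 0, and their part in the differences of the members was not tested.

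**Figure D2:**
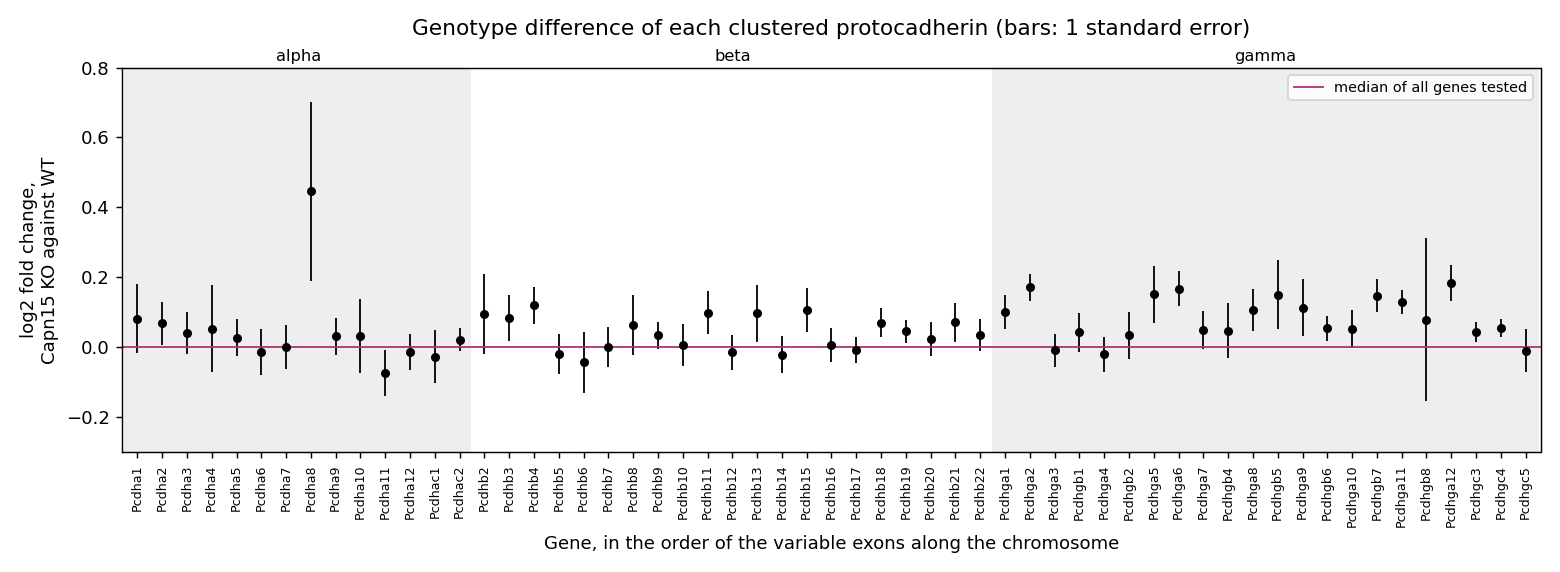
Log2 fold change of Capn15 KO against WT (vertical axis) for each of the 57 members in chromosome order, from the edgeR fit with litter and sex over 14 libraries. Points are estimates and bars 1 standard error, and the line is the median of all genes tested, 0.0015. Most gamma points lie above the line by less than 0.2, and Pcdha8 and Pcdhgb8 carry the longest bars.

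More members differed by litter than by genotype, and so did all genes, with 5301 called for litter and 1 for genotype. In the same model, 16 members differed between litters at an FDR of 0.05, beside 29.6% of all genes, and they were unevenly spread over the clusters, with 1 of 14 alpha, 2 of 21 beta and 13 of 22 gamma genes. At an unadjusted p under 0.05 they were 2 alpha, 5 beta and 16 gamma genes, beside 41% of all genes. Of the 13 gamma genes, 12 were fitted higher in litter B than in litter F, beside 46% of the 5301 genes called. Set against all genes, 12 of 22 gamma genes were called and ordered in this way, beside 13.6% of all genes. Over all members without a test, litter B was above litter F in 21 of 22 gamma genes, 8 of 14 alpha genes and 5 of 21 beta genes, beside 50.6% of all genes. The median difference of B from F was 0.32 on the log2 scale in gamma, 0.012 in alpha and -0.047 in beta members, and 0.0037 over all genes.

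Summed gamma levels were 454 to 464 CPM in the 4 brains of litter B, 441 and 446 in litter A, 419 and 454 in litter C, 396 and 429 in litter D, 405 and 410 in litter E, and 373 and 414 in litter F. The brains of litter B thus sat at the top, level with 1 brain of litter C, and those of litters E and F in the lower part. The summed alpha level stayed between 144 and 158 CPM and the summed beta level between 249 and 291 CPM. In beta the order was another one, with the mean of litter B lowest, at 257 CPM, and that of litter E highest, at 282 CPM.

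**Figure D3:**
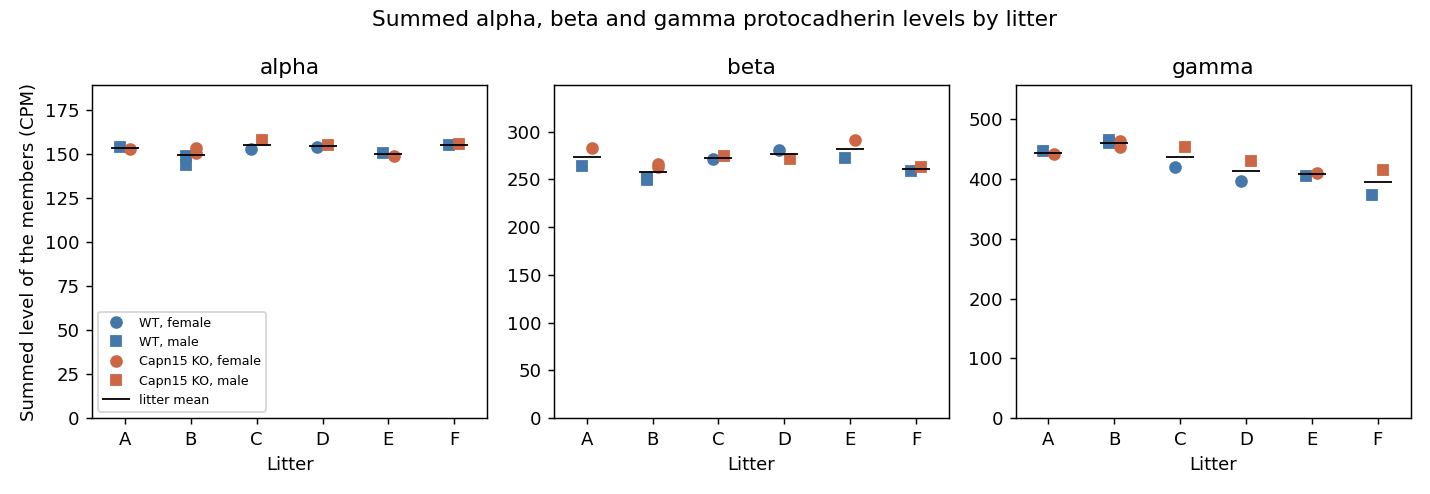
Summed CPM of the 14 alpha, 21 beta and 22 gamma genes (vertical axes, from 0) in each brain, by litter. Colour gives the genotype, the marker shape the sex and the line the litter mean. Gamma falls from 454 to 464 CPM in litter B to 373 and 414 CPM in litter F, while alpha stays between 144 and 158 CPM.

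Pcdhgb6, the most expressed gamma B gene, had the lowest p for litter of all members. It was at 23.9 to 25.8 CPM in the 4 brains of litter B, at 23.5 and 25.7 in litter C and at 16.4 and 17.2 in litter F, with litters A, D and E between 19.2 and 20.6. Litters B and C did not overlap with any other litter, and the adjusted p for litter was 5.1e-05. Pcdhgb7 was at 11.02 to 11.9 CPM in litter B and at 7.53 and 8.74 in litter F, with an adjusted p of 0.0015. Pcdhga11 was highest by its mean in litter A, at 34.2 and 34.6 CPM, and lower in litters D, E and F, between 25.7 and 29.9, with an adjusted p of 0.0012. Pcdhga2 was fitted higher in litter B than in litter F by 0.47 on the log2 scale, with an adjusted p of 0.0024.

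The other called gamma A genes were Pcdhga1, Pcdhga7, Pcdhga8, Pcdhga9 and Pcdhga10, and the other called gamma B genes were Pcdhgb4 and Pcdhgb5. Their fitted range over the litters lay between 0.36 (Pcdhga10) and 0.64 (Pcdhgb5) on the log2 scale. Among C-type genes, Pcdhgc4 followed the gamma order, with 93.1 to 100.4 CPM in litter B, 79.0 and 84.2 in litter F and an adjusted p of 0.0070. Pcdhgc5, whose expression is known to come late in brain development, had the opposite order, with 6.61 to 7.71 CPM in litter B and 8.96 and 11.02 in litter F (adjusted p = 0.028). Pcdhgc3 was not called, with an adjusted p of 0.152.

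In the alpha cluster Pcdha12 was called, with 11.3 to 11.7 CPM in litter B below every brain of the other litters, 13.9 and 15.9 in litter F and an adjusted p of 0.021. The called beta genes were Pcdhb4, at 6.35 to 7.54 CPM in litter B and 9.40 and 11.1 in litter A (adjusted p = 0.0011), and Pcdhb11, with an adjusted p of 0.042. Litter B also lay low in Pcdhgc5, Pcdha12 and Pcdhb4, so it was not high throughout the clusters.

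Without litter B, which holds 4 of the 14 libraries, 196 of all genes and 1 member, Pcdhgb6, differed between the other litters. Whether the calls were lost with this litter or with the number of libraries cannot be told apart. Without litter F 11 members were called, beside 27.5% of all genes, and 10 of the 11 were among the 16 above. Cell type markers moved with litter as well. Of the 47 marker genes measured 33 were called, beside 29.6% of all genes, and the mean of litter B was the lowest or highest in several lists. The summed level of the 5 oligodendrocyte lineage markers was 321 CPM in litter B and between 381 and 523 CPM in the other litter means. The 3 Purkinje cell markers summed to 106 CPM in litter B and to 138 to 167 CPM elsewhere, and the 4 red blood cell markers to 222 CPM in litter B and to 29.8 to 158 CPM elsewhere. The 6 pan-neuronal markers summed to 6330 CPM in litter B and to 6450 to 6715 CPM elsewhere. No measured marker was at 0, the lowest being Omp at a mean of 0.550 CPM, and Fev and Cnga2 were not analysed here. The part of these differences in the litter results of the protocadherins was not tested.

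**Figure D4:**
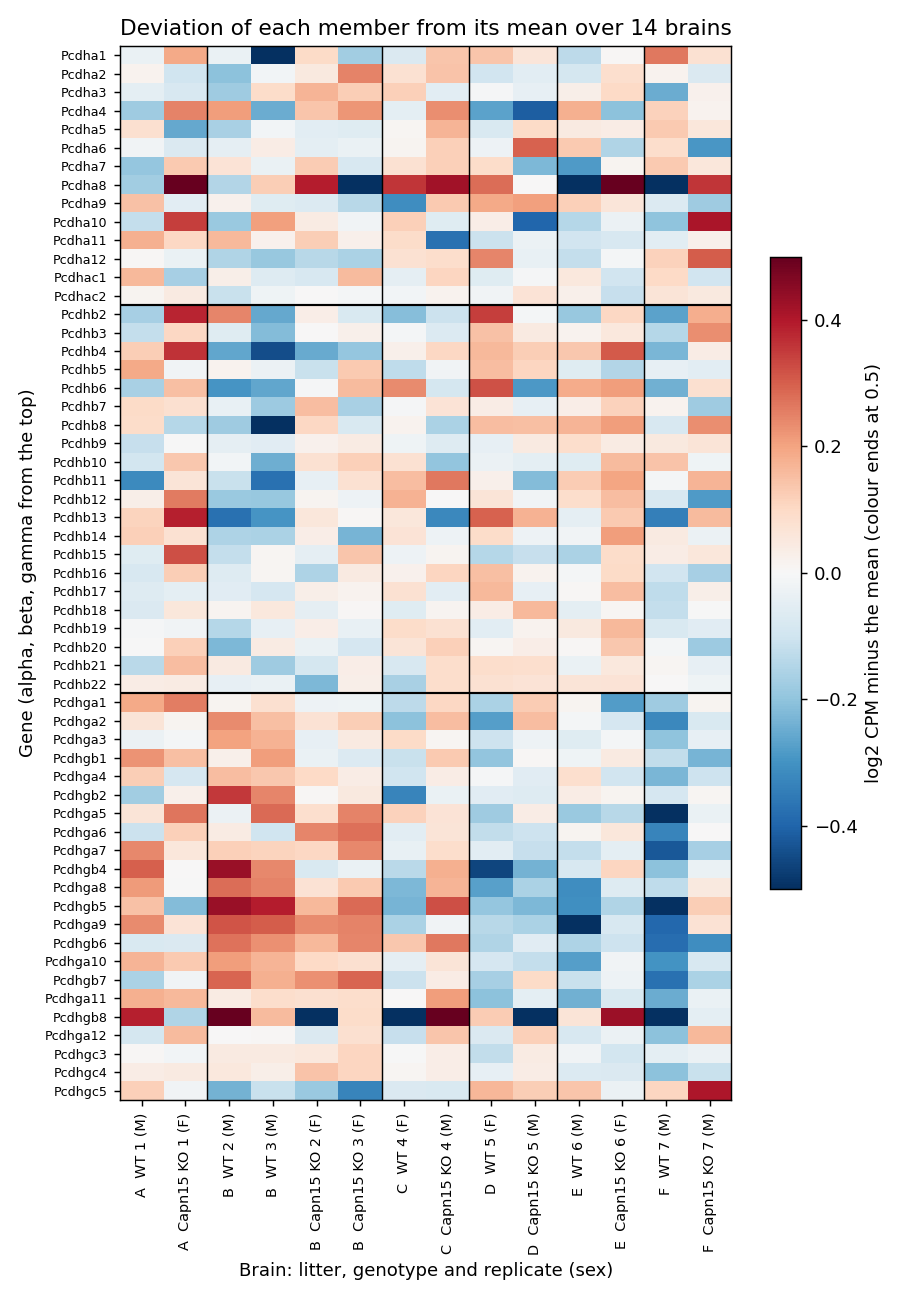
Log2 CPM of each member minus its mean over the 14 brains (colour, ending at 0.5 in either direction), with genes in rows in chromosome order and brains in columns by litter, genotype and sex. The gamma rows are mostly red in the 4 columns of litter B and mostly blue in WT replicates 4, 5, 6 and 7. In litter F their median deviation is -0.24 in WT replicate 7 but only -0.035 in Capn15 KO replicate 7. Pcdhgc5 has the opposite colours in litters B and F. Pcdha8 and Pcdhgb8 scatter most.

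Between males and females, 0 of the 57 members differed at an FDR of 0.05, beside 0.0669% of all genes (12 genes). At an unadjusted p under 0.05 there were 14 members, beside 5.04% of all genes. The 6 gamma genes among them were all higher in males, beside 2.63% of all genes, and the 6 beta genes were all higher in females, beside 2.41%. Of the remaining 2, the alpha gene Pcdha9 was higher in males and Pcdha7 in females. Over all members without a test, 21 of 22 gamma, 3 of 21 beta and 5 of 14 alpha genes were higher in males, beside 48.4% of all genes. Higher in females were 18 of 21 beta and 9 of 14 alpha genes, beside 51.6% of all genes.

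Pcdhga2 had the lowest p for sex, with a log2 difference of males from females of 0.24 and an adjusted p of 0.0728, and the edgeR likelihood ratio test called 1 member. Pcdhga1 (0.18) and Pcdhgb4 (0.25) followed in the gamma cluster, with adjusted p-values of 0.902 and 0.927, and Pcdhb6 was the first beta gene, with -0.34 and an adjusted p of 0.726. In litters A to E each WT brain was of the other sex than the Capn15 KO brains of its litter, and in litter F both brains were male.

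Transcripts of the factors that choose and silence the clustered promoters were measured in the same libraries, and 0 of the 30 genes on that list differed by genotype at an FDR of 0.05. Ctcf, whose protein anchors the promoters to their enhancers, was at 116 CPM, and Smchd1, which encodes a chromatin protein that silences the clusters, was at 131 CPM. At an unadjusted p under 0.05, beside 5.14% of all genes, there were 3 of the 30. They were Tet3, Atf7ip and Wiz, with log2 fold changes of 0.12 ± 0.044, 0.090 ± 0.035 and 0.10 ± 0.048. Tet3 encodes a methylcytosine dioxygenase and Atf7ip a partner of the histone methyltransferase SETDB1. The median of the list was 0.0041, and 13 of the 30 differed by litter, beside 29.6% of all genes.

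Of 23 genes for partners that carry protocadherin signals or cut the proteins, 0 passed the FDR for genotype. At an unadjusted p under 0.05, beside 5.14% of all genes, there were 3. These were Cyfip2 and Wasf1, subunits of the WAVE actin-regulating complex, with 0.088 ± 0.029 and 0.12 ± 0.041, and Ncstn, a subunit of gamma-secretase, with 0.070 ± 0.028. The median of this list was 0.018. Of the 12 non-clustered protocadherins, which lie outside the clusters, 0 passed the FDR and the median was 0.011. At an unadjusted p under 0.05, beside 5.14% of all genes, there was 1 (Pcdh19, 0.088 ± 0.027). Pcdh1 and Pcdh12 of this list lie within 500 kilobases of the clusters and are counted again among the neighbours below. Litter was called in 5 of the 23 and 3 of the 12 genes, beside 29.6% of all genes.

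The genes that neighbour the clusters within 500 kilobases were measured beside them. Of 71 annotated neighbours 37 were measured, with a median log2 fold change for genotype of 0.00012. None passed the FDR, and 3 had an unadjusted p under 0.05, beside 5.14% of all genes. The 3 were Gnpda1 (-0.13 ± 0.048), Diaph1 (0.075 ± 0.029) and the low Gm10545 (0.39 ± 0.17). Litter was called in 7 of the 37, beside 29.6% of all genes. Hdac3, just beyond the gamma cluster, was at 126 CPM with a log2 fold change of -0.0011 ± 0.027, and Taf7, which lies between the beta and gamma genes, was at 22.3 CPM with -0.025. For Taf7 the adjusted p for litter was 0.381. Its difference of litter B from litter F, a pair chosen after the gamma values were seen, was 0.092 on the log2 scale. The median gamma gene beside Taf7 differed by 0.32.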

How the data were processed

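The labels gave genotype and replicate number. Each column name in the deposited count table also held a letter from A to F with a number, and an F or M. These were read as litter and sex, since the paper names both as variables, but the column names do not explain them. The authors trimmed the reads with Trimmomatic, aligned them to GRCm38 with STAR and deposited whole-number counts per gene for 14 brains, not normalized and already filtered to 17927 genes. Their methods name HTSeq-count, ScriptSeq libraries and a HiSeq instrument, whereas the submitters' processing notes and labels name featureCounts, stranded TruSeq libraries and a NovaSeq sequencer. The annotation release, the strand setting and the gene filter were not given in the sources used here.

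Members and gene lists were chosen with earlier results of these data known. All genes with at least 1 count were fitted with the quasi-likelihood test of edgeR 4.0.16 in R 4.3.3 (TMM factors, litter, sex and genotype, two-sided tests, Benjamini-Hochberg FDR under 0.05 over 17927 genes), and the rows of the members were then read. The test was checked on simulated counts without litter or sex effects. Of 200 genes given a log2 fold change of 1 in either direction, 188 were recovered, with 13 false calls. Smaller changes, such as those of most members, were not simulated. The p-values rest on the spread between brains that is left once litter, sex and genotype are fitted. CPM were scaled by TMM factors. Exons were taken from GENCODE M21, which held 17909 of the identifiers. At 3 counts a gene in the smallest library is at 0.0800 CPM, which covers counting error only. DESeq2 1.42.0 and limma 3.58.1 (voom) were alternatives, beside another filter, other normalizations and covariates, a block on the replicate number, and fits without litter F, litter B or each library.

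Test values are given for the C-type genes, for the 3 genes per cluster with the highest level per kilobase, for the 3 with the lowest p for genotype, for Capn15, and in each list for genes of low p or high level. Members with low p for litter or sex were named, and litters B and F compared, after the values were seen. Ctcf, Smchd1 and Taf7 were named for their known role or position. Same-numbered WT and Capn15 KO brains carried the same litter letter in the column names. The correlation of their deviations from the group means lay between -0.46 and 0.45 over 15250 genes and was over 0.1 in 4 of 7 pairs. No column of values was left unused. Figures were drawn with matplotlib 3.10.9.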

Additional observations from a re-analysis of the deposited data

Results flagged for a closer look

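In 122 groups of 7 libraries (57 members, the 3 cluster sums and Capn15, each in both genotypes), the gap of the highest or lowest library to its nearest neighbour, as a share of the range of log2 CPM of the group, exceeded Dixon's 95% critical value in 7. Chance gives about 1 in 20 such groups, or 6.1 of 122. For Capn15, WT replicate 7 was lowest with a share of 0.761 and Capn15 KO replicate 7 was highest with 0.647, the libraries of litter F.

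The other 5 groups were of single members. In Capn15 KO brains, Pcdha11 was lowest in replicate 4, at 6.64 CPM beside 8.15 in the next (0.592), and Pcdhb22 was lowest in replicate 2, at 20.6 beside 23.7 CPM (0.652). Capn15 KO replicate 6 was lowest for Pcdhac2, at 43.6 beside 46.9 CPM (0.572), and highest for Pcdhb17, at 29.7 beside 27.2 CPM (0.600). In WT brains, Pcdhb20 was lowest in replicate 2, at 17.8 beside 20.7 CPM (0.741).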

How the results depend on the processing

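In 25 alternative fits 0 members passed the FDR for genotype, and 11 of the 19 members chosen for test values kept the sign of their log2 fold change in all of them. Genes called for genotype over the whole table numbered 1, and 34 with the likelihood ratio test, 22 with DESeq2, 2 without sex, 7 without litter F, and 0 with library totals only or without litter B. The replicate block with sex, which pairs brains by number, called 0 genes and 0 members, and changed no call of a member. Genes at an unadjusted p under 0.05 fell from 922 to 576 with DESeq2 and to 260 with genotype alone, where 2 members were below that p rather than 6.

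The litter counts moved most. Alpha genes called for litter were 2 with the likelihood ratio test, and 0 without litter F or litter B, instead of 1. Beta genes called were 1 without sex, 0 without litter B, and 3 without litter F or with the likelihood ratio test, instead of 2. Gamma genes called were 15 with that test, 8 without litter F and 1 without litter B, instead of 13, with 196 genes of the whole table called without litter B. Of all genes, 37.4% were called with that test, 27.5% without litter F and 1.09% without litter B, instead of 29.6%. For sex, the likelihood ratio test called 36 genes and 1 member and DESeq2 19 genes. The shares of the summed level by CPM were 17.9%, 31.5% and 50.5% for alpha, beta and gamma.

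Small log2 fold changes turned sign. With genotype alone and without sex they were -0.0018 and -0.0035 for Pcdha5, -0.013 and -0.012 for Pcdha9, and 0.024 and 0.025 for Pcdhb17. Pcdhac1 was at 0.0040 without litter F, and without litter B Pcdha5 was at -0.014 and Pcdhac2 at -0.0034. The cause of these moves was not tested.

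With each library left out in turn, the ranges were 0 to 7 genes and 0 to 0 members called for genotype, 670 to 1447 genes and 5 to 11 members at an unadjusted p under 0.05, and for litter 3626 to 5770 genes, 0 to 3 alpha, 1 to 2 beta and 6 to 14 gamma members, and for sex 11 to 16 genes and 0 members. The median log2 fold change ranged from 0.0083 to 0.060 in alpha, 0.026 to 0.045 in beta and 0.047 to 0.10 in gamma members. Signs turned in Pcdha9 (-0.059 to 0.10), Pcdha11 (-0.17 to 0.040), Pcdhac1 (-0.061 to 0.0040), Pcdhb17 (-0.041 to 0.021), Pcdhb20 (-0.00051 to 0.058) and Pcdhgc5 (-0.075 to 0.030). All 25 alternatives read the same counts, so shared constant exons and near-identical stretches limit them alike.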
